A study of Mus musculus with 8 samples.

Results

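Integrins and laminins are the receptor and ligand families through which cells hold on to the matrix around them. The genes were taken by symbol from the deposited annotation: every integrin α subunit (Itga), every integrin β subunit (Itgb with 1 digit) and every laminin chain (Lama, Lamb, Lamc), with 1 probe set per gene, the one with the highest mean over all arrays. This gave 37 genes, 18 integrin α subunits, 8 integrin β subunits and 11 laminin chains, of 20719 genes in the data. All 37 were measured and none was filtered out.

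The cells were ATCL7, an immortalized line from a mouse adrenocortical tumour, labelled male. In the BIO group, 4 samples of 250000 cells received 0.5 µM BIO (6-bromoindirubin-3'-oxime) for 24 h, and in the vehicle group 4 samples received 0.01% DMSO for the same time. BIO is an inhibitor of GSK3, whose phosphorylation of β-catenin leads to its breakdown, and the series title names Wnt/β-catenin signalling as its subject. Both groups were kept in medium with 0.025% of each of 2 sera during treatment, so the vehicle cells were in low serum as well, and all values come from 1 cell line. Each sample's RNA was hybridised to 1 Affymetrix array, and the titles join each BIO sample with a vehicle sample in 1 of 4 numbered pairs.

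An integrin is a dimer of 1 α and 1 β subunit that spans the membrane. Outside the cell the pair sets which matrix protein is bound: α3, α6 and α7 bind laminins, α1, α2, α10 and α11 bind collagens, and α5, α8, αV and αIIb bind proteins with the short RGD sequence, such as fibronectin. Inside, the β tail binds talin and kindlin, which tie the dimer to actin. Laminins are trimers of 1 α, 1 β and 1 γ chain and, with type IV collagen, nidogen and perlecan, build the basement membrane. The mouse adrenal cortex is rich in basement membrane around its capillaries and cell cords.

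Values are log2 expression made by the authors with RMA. A change is BIO minus vehicle within pairs, tested with limma across all genes, and a gene passed when its Benjamini-Hochberg adjusted p was under 0.05. Array medians lay between 5.70 and 5.73, and arrays correlated at 0.9948 to 0.9986 within groups and at 0.988 to 0.992 between them, across genes. The files hold no detection call, so it is unknown which dim genes lie above background; 27 of the 37 genes lay in the dimmer 50% of all genes, under a mean of 6.44 log2. The labels do not say whether the pairs were grown apart, so a p-value here covers the variation among these 8 arrays, part of which may be technical. Of 8 markers of the adrenal cortex, 6 lay in the brighter 50% of genes, and all 8 fell by limma, beside 15.6% of all genes, and 4 by the authors' deposited test, with a summed level (linear scale) of 3937 to 4918 in BIO arrays and 6430 to 8345 in vehicle arrays. The part of these marker falls in the results that follow was not tested, and no share of all genes is given here for the deposited test. Of the markers of other cells, all 4 of platelets, all 5 of endothelium, all 5 of other epithelia and 7 of 8 of leukocytes lay in the dimmer 50% of genes. Of these lists, 2 leukocyte and 1 epithelial gene fell, and 0 platelet and 0 endothelial genes passed by limma or by the authors' deposited test, with 0 and 3 at an unadjusted p under 0.05. The summed level of the leukocyte list was 312 to 334 in BIO arrays and 377 to 410 in vehicle arrays. This sum weighs bright genes most, and Cd68, the brightest of the list, averaged 7.25 log2 in BIO and 7.70 log2 in vehicle. Of the 8 leukocyte genes, 6 did not pass. In cultured cells measured in bulk, fewer cells of a kind and less RNA per cell cannot be told apart.

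Most of the genes that passed were receptors, which also make up 26 of the 37 genes. Of the 37 genes, 13 fell, 3 rose and 21 did not pass. Among the integrins 10 of 26 fell and 3 rose, and among the laminins 3 of 11 fell and 0 rose by limma. At an unadjusted p under 0.05, 4 laminins were lower and 0 higher, and by the authors' deposited paired test, adjusted over all genes, 0 of 11 laminins passed. The greatest falls were those of Itgb8, Itga3, Lamb1 and Itgb5, the 4 genes that were at least 1.5-fold lower, and the greatest rise was that of Itga6, at 1.65-fold. Of the 37 genes 43.2% passed, 35.1% lower and 8.11% higher, against 32.7% of all genes tested, 15.6% lower and 17.0% higher. A fall of at least 1.5-fold was called for 10.8% of the 37 genes and 3.3% of all genes, and a rise of that size for 1 of the 37 and 2.19% of all genes. The share that passed differed with brightness: 10 of the 27 dimmer integrin and laminin genes passed, against 13.4% of the dimmer 50% of all genes, and 6 of the 10 brighter ones, against 51.9% of the brighter 50%. The median change was −0.07 log2 over integrins, −0.03 over laminins and −0.01 over all genes. Without the dimmest 25% or 50% of genes the integrin median was −0.194 or −0.263. It was −0.103 without replicate 1, and the laminin median was −0.068 without replicate 1 and −0.018 without replicate 4.

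**Figure D1:**
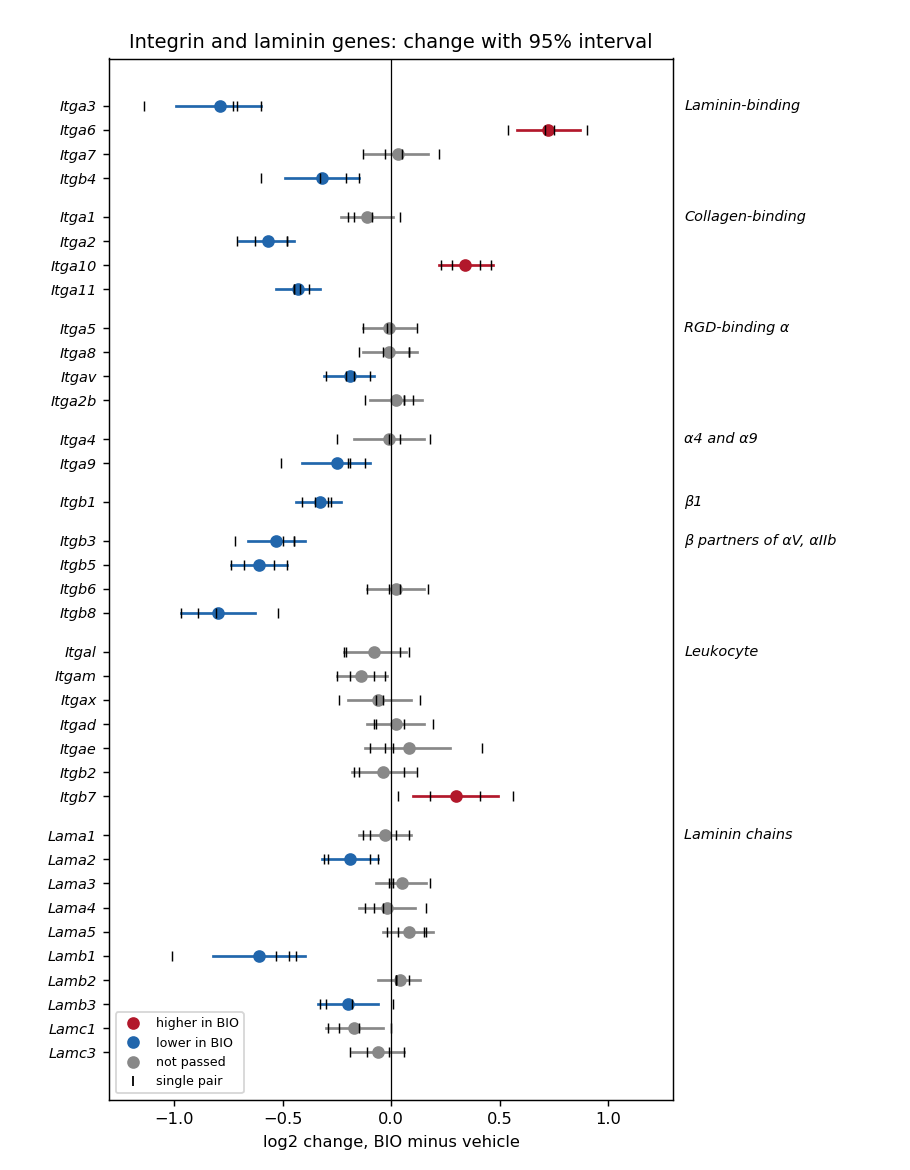
Log2 change (x axis, BIO minus vehicle) of 36 of the 37 genes, grouped by ligand or chain; circles are limma estimates, lines their 95% intervals and black ticks the changes in single pairs. Blue genes fell, red genes rose and grey genes did not pass; Itga3 and Itga6, both subunits of laminin receptors, lie on opposite sides at −0.79 and 0.72.

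The promoter windows of 4 of these genes are shown: Itga3, Itgb8 and Itgb5, which fell in 4 of 4 pairs with BIO and vehicle arrays apart, and Itga10, which rose. Itga6, the gene with the greatest rise, had no window to search. Lamb1 had a window with 2 GC boxes, which is not printed. Each runs from 250 bases before to 50 after the RefSeq start on GRCm38.p6, 5′ to 3′ on the gene's strand. Capitals mark matches on either strand to 5 motifs: CTTTGAT (TCF/LEF, the partners of β-catenin), TGANTCA (AP-1), GGAATG (TEAD), GGGCGG (the GC box of Sp1) and CCGGAAG (ETS).
Itga3, chr11:95076665-95076964, minus strand: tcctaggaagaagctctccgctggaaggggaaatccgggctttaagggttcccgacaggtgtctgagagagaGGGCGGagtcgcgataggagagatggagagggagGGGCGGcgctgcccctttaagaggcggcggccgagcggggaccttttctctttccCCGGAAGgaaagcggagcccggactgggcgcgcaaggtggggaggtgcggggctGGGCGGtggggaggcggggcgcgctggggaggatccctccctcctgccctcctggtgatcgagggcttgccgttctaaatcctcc
Itgb8, chr12:119238227-119238526, minus strand: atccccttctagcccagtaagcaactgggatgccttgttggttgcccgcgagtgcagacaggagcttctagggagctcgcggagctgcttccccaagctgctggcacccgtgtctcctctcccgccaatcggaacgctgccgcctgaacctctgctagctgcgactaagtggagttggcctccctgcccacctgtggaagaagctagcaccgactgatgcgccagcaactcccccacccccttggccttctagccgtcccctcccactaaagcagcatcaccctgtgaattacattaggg
Itgb5, chr16:33829415-33829714, plus strand: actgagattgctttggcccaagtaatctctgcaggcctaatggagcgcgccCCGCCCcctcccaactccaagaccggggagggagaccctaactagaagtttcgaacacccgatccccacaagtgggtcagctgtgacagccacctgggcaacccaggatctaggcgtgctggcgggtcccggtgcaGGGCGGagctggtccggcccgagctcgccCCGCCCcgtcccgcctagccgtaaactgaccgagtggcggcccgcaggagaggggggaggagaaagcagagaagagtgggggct
Itga10, chr3:96645334-96645633, plus strand: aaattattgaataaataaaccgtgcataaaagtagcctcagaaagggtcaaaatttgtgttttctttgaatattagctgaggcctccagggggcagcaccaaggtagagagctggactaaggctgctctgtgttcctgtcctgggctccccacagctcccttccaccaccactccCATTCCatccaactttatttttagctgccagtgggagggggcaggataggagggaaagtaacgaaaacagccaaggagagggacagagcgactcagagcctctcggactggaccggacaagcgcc

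The Itga3 window printed, that of the upstream of its 2 listed starts, held 3 GC boxes and 1 ETS match, the Itgb5 window 3 GC boxes, the Itga10 window 1 TEAD match, and the Itgb8 window none of the 5 motifs. The other Itga3 window, chr11:95069149-95069448, held 1 AP-1 match and 1 GC box. Windows were searched for 23 of the 37 genes, 26 windows in all, since 3 genes had 2 listed starts. Chromosome 18, where Lama3 lies, was left out for the 37 genes, and that limit was not set for all windows. CTTTGAT was in 0 of the 26 windows and in 3.73% of all 32851 RefSeq windows. Only this exact form was searched, so a 0 does not cover other forms of the site. The printed Itga10 window holds CTTTGAA, which differs in the last letter and is not marked. The GC box was in 12 of 26 windows, 8 of the 13 windows of genes that fell, 0 of the 2 of genes that rose and 4 of the 11 of genes that did not pass, and in 35.7% of all windows. Both Itga3 windows are among these 8. The share of G and C was 66.7%, 60.7% and 65.7% in the printed Itga3, Itgb8 and Itgb5 windows and 51.0% in that of Itga10. The median over all windows was 52.7%, and the part of base content in the GC box counts was not tested. TGANTCA was in 3 of 26 and 7.81% of all, GGAATG in 3 of 26 and 14.7% of all, and CCGGAAG in 1 of 26 and 8.86% of all. A match describes the letters and is not a binding site.

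The laminin receptors went in opposite directions. Itga3 encodes α3, a β1 partner that binds laminins of epithelial basement membranes. It read 8.99, 8.99, 8.86 and 8.89 log2 in BIO pairs 1 to 4, against 9.69, 10.13, 9.58 and 9.49 log2 in vehicle. Every BIO array lay below every vehicle array, and vehicle pair 2 was the highest. Itga3 was 1.73-fold lower in BIO (log2 change −0.79 ± 0.08, SE, adjusted p = 0.000187).

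Itga6 encodes α6, which pairs with β1 or β4 and is also a laminin receptor. It read 9.23, 8.92, 9.34 and 9.47 log2 in BIO, against 8.33, 8.39, 8.59 and 8.76 log2 in vehicle. All BIO arrays were above all vehicle arrays. The rise was 1.65-fold (0.72 ± 0.06, SE, adjusted p = 6.56e-05), with changes of 0.90, 0.54, 0.75 and 0.71 in pairs 1 to 4. The difference between the change of Itga6 and that of Itga3 was 1.61, 1.68, 1.47 and 1.31 log2 in the 4 pairs, a mean of 1.52 ± 0.16 (SD, n = 4 pairs). An exact two-sided sign-flip test gave p = 0.125, the smallest that 4 pairs allow. The genes set against each other in this way, here and for the other receptors, were picked with their changes known, so these differences are descriptions.

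Itga7, the α subunit of the muscle laminin receptor, averaged 4.94 ± 0.04 log2 in BIO and 4.91 ± 0.15 log2 in vehicle (SD, n = 4 each) and did not pass. Itgb4 encodes β4, the α6 partner of hemidesmosomes, and has 2 probe sets. The chosen one read 5.65, 5.58, 5.67 and 5.64 log2 in BIO, against 5.87, 6.18, 5.82 and 5.96 log2 in vehicle, a fall of 0.32 on the log2 scale (SE 0.07, adjusted p = 0.0103) with no overlap. The other, dimmer one averaged 5.12 ± 0.10 log2 in BIO and 5.17 ± 0.09 log2 in vehicle (SD, n = 4 each) and did not pass (adjusted p = 0.423 in a fit over every probe set), so the call of Itgb4 rests on 1 of its 2 probe sets. By the authors' deposited paired test, adjusted over the same genes, Itgb4 did not pass (adjusted p = 0.136).

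**Figure D2:**
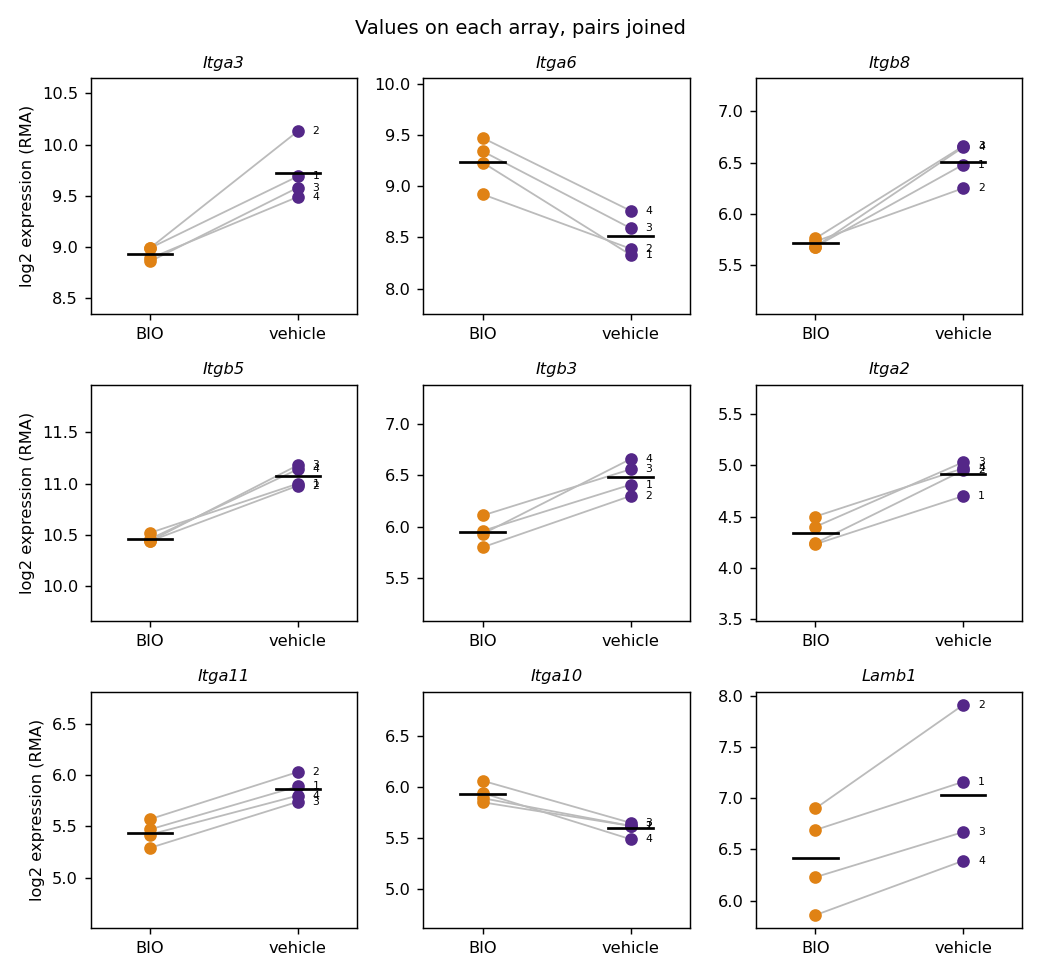
Log2 expression (y axis) on each array for 9 genes; orange points are BIO arrays, purple points vehicle arrays with the pair number beside them, grey lines join pairs and black bars are means. All panels span the same log2 range. The 9 are the genes that passed with the largest changes, so little overlap follows in part from the choice. BIO and vehicle arrays do not overlap for 8 of them, beside 27.0% of all genes, and for Lamb1 they overlap while every pair falls.

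The collagen receptors also divided. Of the 4 α subunits, 2 fell, 1 rose and 1 did not pass, beside 15.6% lower and 17.0% higher over all genes. All 4 lay in the dimmer 50% of genes, of which 13.4% passed. Itga2, a collagen receptor of epithelia and platelets, read 4.23, 4.24, 4.40 and 4.50 log2 in BIO, against 4.70, 4.95, 5.03 and 4.97 log2 in vehicle. The groups did not overlap, and Itga2 was 1.49-fold lower (−0.57 ± 0.05, SE, adjusted p = 0.000115). Itga11, the α subunit of a fibroblast collagen receptor, was lower by a nearly equal step in each pair.

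Itga11 read 5.47, 5.57, 5.29 and 5.42 log2 in BIO, against 5.89, 6.03, 5.74 and 5.80 log2 in vehicle, so the changes were −0.42, −0.45, −0.45 and −0.38 (1.34-fold lower, adjusted p = 0.000148). Itga10, known as a collagen receptor of cartilage, read 5.85, 5.89, 6.06 and 5.94 log2 in BIO, against 5.62, 5.62, 5.65 and 5.49 log2 in vehicle. It rose 1.27-fold with no overlap (0.34 ± 0.05, SE, adjusted p = 0.00146). The change of Itga10 exceeded that of Itga2 by 0.92 ± 0.15 log2 (SD, n = 4 pairs, exact sign-flip p = 0.125). Itga1 did not pass (−0.11 ± 0.05, SE).

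Of the 4 β subunits besides β1 that pair with αV or αIIb, 3 fell, beside 15.6% of all genes. Of the 4, 3 lay in the dimmer 50% of genes and 2 of these passed, beside 13.4% of all genes that dim. Itgb8 encodes β8, which with αV binds latent TGF-β and releases its active form. It read 5.68, 5.73, 5.76 and 5.68 log2 in BIO, against 6.48, 6.25, 6.66 and 6.65 log2 in vehicle. The 4 BIO arrays lay within 0.08 log2 of one another and below every vehicle array, and Itgb8 was 1.74-fold lower (−0.80 ± 0.07, SE, adjusted p = 9.22e-05).

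Itgb5 encodes β5, which makes a vitronectin receptor with αV. It read 10.52, 10.44, 10.44 and 10.46 log2 in BIO, against 11.00, 10.98, 11.18 and 11.14 log2 in vehicle, again with no overlap and a narrow spread in BIO. The fall was 1.53-fold (−0.61 ± 0.06, SE, adjusted p = 9.51e-05). Itgb3 encodes β3, which pairs with αV and, in platelets, with αIIb. It read 5.96, 5.80, 6.11 and 5.93 log2 in BIO, against 6.41, 6.30, 6.56 and 6.66 log2 in vehicle, and was 1.44-fold lower with no overlap (−0.53 ± 0.06, SE, adjusted p = 0.000223). Itgb6, an epithelial partner of αV, averaged 3.85 ± 0.04 log2 in BIO and 3.82 ± 0.08 log2 in vehicle (SD, n = 4 each) and did not pass.

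Itgav, which encodes αV, read 10.04, 10.04, 10.23 and 10.31 log2 in BIO, against 10.21, 10.34, 10.44 and 10.41 log2 in vehicle. The groups overlapped, although each pair was lower, and the fall was 1.14-fold (−0.19 ± 0.05, SE, adjusted p = 0.016). It did not pass in a fit with no pair block (adjusted p = 0.107), by the authors' deposited test (0.0731) and without replicate 2 (0.0677) or 3 (0.0687). The change of Itgb5 minus that of Itgav was −0.30, −0.25, −0.53 and −0.58 log2 in pairs 1 to 4, and that of Itgb8 minus Itgav −0.63, −0.23, −0.68 and −0.87. Both differences had the same sign in 4 of 4 pairs (exact sign-flip p = 0.125 each).

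Itgb1, the β subunit shared by most matrix receptors, also fell. Its chosen probe set read 11.07, 11.20, 10.95 and 10.91 log2 in BIO, against 11.35, 11.49, 11.30 and 11.32 log2 in vehicle. No BIO array reached a vehicle array, and Itgb1 was 1.26-fold lower (−0.33 ± 0.05, SE, adjusted p = 0.000836). A second, dimmer probe set of Itgb1 averaged 5.75 ± 0.13 log2 in BIO and 5.85 ± 0.12 log2 in vehicle (SD, n = 4 each) and did not pass (−0.10 ± 0.06, SE).

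Itga5, the α subunit of the main fibronectin receptor, did not pass: it averaged 9.65 ± 0.11 log2 in BIO and 9.65 ± 0.13 log2 in vehicle (SD, n = 4 each). The 95% interval of its change ran from −0.13 to 0.11 log2. Itga8 and Itga2b, which encode α8 and the platelet subunit αIIb, did not pass either (−0.01 and 0.02 log2). Itga9, a receptor subunit for tenascin and osteopontin, fell by 0.25 on the log2 scale (SE 0.07, adjusted p = 0.0212) with overlapping groups and changes of −0.51, −0.12, −0.19 and −0.20. The call did not hold with replicate 3 left out (adjusted p = 0.0516), nor in the authors' deposited test (0.163). Itga4, its nearest relative, was at −0.01 ± 0.07 log2 (SE).

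All 7 subunits grouped here as leukocyte integrins, a group without Itga4, lay in the dimmer 50% of genes, of which 13.4% passed. Of the 7, 6 did not pass, with changes from −0.14 to 0.08 log2. Among them were Itgal, Itgam, Itgax and Itgad, α partners of β2, Itgb2 itself and Itgae, a partner of β7. Ptprc, the pan-leukocyte marker CD45, named after its value was seen, averaged 4.50 ± 0.02 log2 in BIO and 4.56 ± 0.12 log2 in vehicle (SD, n = 4 each) and did not pass. The 2 leukocyte markers that fell were Cd68, a lysosomal protein of macrophages and the 1 marker of the list in the brighter 50% of genes (−0.45 log2), and Coro1a, an actin-binding protein of leukocytes (−0.15 log2), both with no overlap. The part of these in the integrin values was not tested. Itgb7 was the exception and read 5.17, 4.89, 4.83 and 5.13 log2 in BIO, against 4.61, 4.71, 4.81 and 4.72 log2 in vehicle.

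The Itgb7 groups did not overlap, but BIO pair 3 lay only 0.03 log2 above its vehicle partner, and the rise of 0.30 ± 0.08 (SE, adjusted p = 0.0265) was uneven. Leaving out replicate 1 (adjusted p = 0.104) or 4 (0.098) ended the call, and the authors' deposited test did not pass it (0.206).

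BIO and vehicle arrays did not overlap for 11 of the 37 genes, all of them integrins, 8 lower and 3 higher. This was 29.7% of the 37 genes, against 27.0% of all genes, so the share over both families was near the background. It was 42.3% of the integrins and 0.0% of the laminins. By direction, all genes gave 12.9% lower and 14.1% higher. For the 21 genes that did not pass, the 95% intervals of the log2 change lay between −0.30 and 0.27, within 1.5-fold either way for 21 of 21, and 17 of the 21 were in the dimmer 50% of genes.

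Of the laminin chains, Lamb1 had the 1 fall of at least 1.5-fold. It encodes β1, the common β chain of the ubiquitous laminins. It read 6.69, 6.90, 6.23 and 5.86 log2 in BIO, against 7.16, 7.91, 6.67 and 6.39 log2 in vehicle. The groups overlapped because the pairs differed from one another, and within each pair BIO was lower, with changes of −0.47, −1.01, −0.44 and −0.53 log2. The fall was 1.53-fold (−0.61 ± 0.09, SE, adjusted p = 0.00131). Without the pair block it did not pass (adjusted p = 0.225), nor by the authors' deposited test (0.0778).

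Lamb1 had the widest spread over vehicle arrays of the 37 genes, a range of 1.52 log2, followed by Itga3 with 0.64. Vehicle pairs 1 and 2 averaged 1.00 log2 above vehicle pairs 3 and 4 for Lamb1 and 0.37 above for Itga3, while the same difference was −0.32 for Itga6, −0.34 for Lamb2 and −0.30 for Lama5.

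The other abundant chains of the ubiquitous laminins did not pass. Lamb2, the β2 chain of vascular and kidney laminins, read 10.38, 10.13, 10.52 and 10.60 log2 in BIO, against 10.30, 10.10, 10.51 and 10.57 log2 in vehicle, a difference of 0.04 ± 0.04 (SE). Lama5, the α5 chain, averaged 9.50 ± 0.20 log2 in BIO and 9.42 ± 0.19 log2 in vehicle (SD, n = 4 each). The 95% interval of the change ran from −0.06 to 0.13 for Lamb2 and from −0.04 to 0.19 for Lama5.

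Lamc1, the γ1 chain of nearly all laminins, read 9.66, 9.65, 9.74 and 9.81 log2 in BIO, against 9.67, 9.89, 10.03 and 9.96 log2 in vehicle. All 4 pairs were lower in BIO, pair 1 only slightly. The difference of −0.17 ± 0.06 (SE) did not pass (adjusted p = 0.0508). Over the alternatives the adjusted p ran from 0.0173, with an intensity trend and robust prior, to 0.208, without replicate 3, and 5 of 11 alternatives passed it.

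Lama2, the α2 chain of muscle and nerve laminin, and Lamb3, the β3 chain of the epithelial anchoring laminin, had log2 changes of −0.19 and −0.20 and passed (adjusted p = 0.0347 and 0.0387). Neither separated the groups, and both calls were lost without the pair block (adjusted p = 0.203 for Lama2 and 0.126 for Lamb3). Both were also lost by the authors' deposited test (0.157 and 0.187). Leaving out replicate 1 or 2 ended the call of Lama2 (adjusted p = 0.127 and 0.131), and leaving out replicate 2, 3 or 4 that of Lamb3 (0.136, 0.103 and 0.144). Lama3, an α chain of that laminin, did not pass (0.05 log2), and neither did Lama1, Lama4 and Lamc3 (−0.03, −0.02 and −0.06).

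Other partners of laminin in the basement membrane, and laminin receptors that are not integrins, were lower in part. This list and the related lists that follow were chosen with earlier results of these data known. Of 15 genes on this list, 9 fell, 0 rose by limma (0 at an unadjusted p under 0.05) and 6 did not pass, with a median of −0.24 log2, beside 15.6% lower and 17.0% higher over all genes. Of its 11 brighter genes 8 passed, beside 51.9% of all genes that bright. Nid1, the nidogen that joins laminin γ1 to type IV collagen, read 6.74, 6.79, 6.12 and 5.66 log2 in BIO, against 8.33, 9.10, 7.85 and 7.58 log2 in vehicle. It was 3.7-fold lower with no overlap (−1.89 ± 0.10, SE, adjusted p = 8.31e-06), and pair 2 was highest and pair 4 lowest in both groups, as for Lamb1.

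Sdc4, a heparan sulphate proteoglycan of focal adhesions, had a log2 change of −0.67, Col4a1 and Col4a2, the chains of the common type IV collagen, of −0.55 and −0.45, and Ntn4, a netrin with a laminin-like domain, of −0.52. All 4 fell. The authors' deposited test did not pass Col4a2 (adjusted p = 0.0507) or Ntn4 (0.113). Dag1, which encodes the laminin receptor dystroglycan and was named after its value was seen, did not pass: it averaged 10.49 ± 0.13 log2 in BIO and 10.45 ± 0.13 log2 in vehicle (SD, n = 4 each). Its 4 pair differences lay between 0.03 and 0.05, and by the authors' deposited test it was the 1 gene of the list called higher.

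Integrin ligands other than laminins were lower for 14 of 20 genes, with 1 higher, 5 that did not pass and a median of −0.47 log2, beside 15.6% lower and 17.0% higher over all genes. Of its 11 brighter genes 10 passed, beside 51.9% of all genes that bright. Spp1, which encodes osteopontin, a ligand of αV and α9 integrins, read 8.72, 7.45, 7.56 and 6.94 log2 in BIO, against 11.32, 11.12, 11.25 and 10.94 log2 in vehicle (11.2-fold lower, adjusted p = 8.31e-06). Thbs1, Ccn2 and Tnc, matrix proteins that bind αV integrins among others, fell, with log2 changes of −1.61, −1.52 and −1.32. Vcam1, the cell surface ligand of α4 integrins, fell as well (−1.43). These 5 had the greatest falls of the list, and none overlapped between groups.

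Fn1, which encodes fibronectin, the main ligand of α5, read 11.57, 11.49, 11.72 and 11.64 log2 in BIO, against 11.98, 11.91, 12.27 and 12.15 log2 in vehicle. It was 1.39-fold lower (−0.47 ± 0.05, SE, adjusted p = 0.000136), while Itga5 did not pass. The gene that rose was Jam3 (picked for mention from its value), a junction protein that binds leukocyte integrins (0.20 ± 0.06, SE, adjusted p = 0.0414). Its groups overlapped, and the list held 0 higher genes without the pair block or without replicate 2, 3 or 4.

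Most transcripts on the list of proteins that link integrins to actin were lower. Of 29 genes 22 fell, 2 rose and 5 did not pass, with a median of −0.26 log2. Over all genes 15.6% were lower and 17.0% higher. Most of the list is bright: 24 of the 29 genes lay in the brighter 50% of genes, and 22 of those 24 passed, beside 51.9% of all genes that bright. Nedd9, a docking protein of focal adhesions, was 1.93-fold lower (−0.95 ± 0.04, SE, adjusted p = 3.25e-06). It read 9.47, 9.29, 9.38 and 9.47 log2 in BIO, against 10.43, 10.26, 10.33 and 10.42 log2 in vehicle, with no overlap.

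Next came Tns3 and Tns1, tensins that bind β tails, at −0.71 and −0.64 log2, Tes, a protein of focal adhesions, at −0.65, and Zyx, which encodes zyxin, at −0.58. Tns1 has 6 probe sets, and their mean gave −0.40 log2, which also passed (adjusted p = 0.000285). Ilk, the pseudokinase that binds β1 tails, fell by 0.36 on the log2 scale with no overlap. Tln1, which encodes the main talin, averaged 10.46 ± 0.09 log2 in BIO and 10.72 ± 0.15 log2 in vehicle (SD, n = 4 each), a fall of 0.26 with overlapping groups, which the authors' deposited test did not pass (adjusted p = 0.054). Ptk2, which encodes focal adhesion kinase, fell by 0.20 with overlapping groups. It did not pass in a fit with no pair block (adjusted p = 0.0643), by the deposited test (0.0605) and without replicate 2 (0.0511) or 3 (0.0667). The genes that rose, named after their values were seen, were Tln2, the second talin (0.36 ± 0.05, SE), and Itgb1bp1, which encodes ICAP-1, a protein that competes with talin for the β1 tail (0.18 ± 0.05). Without the pair block neither passed.

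**Figure D3:**
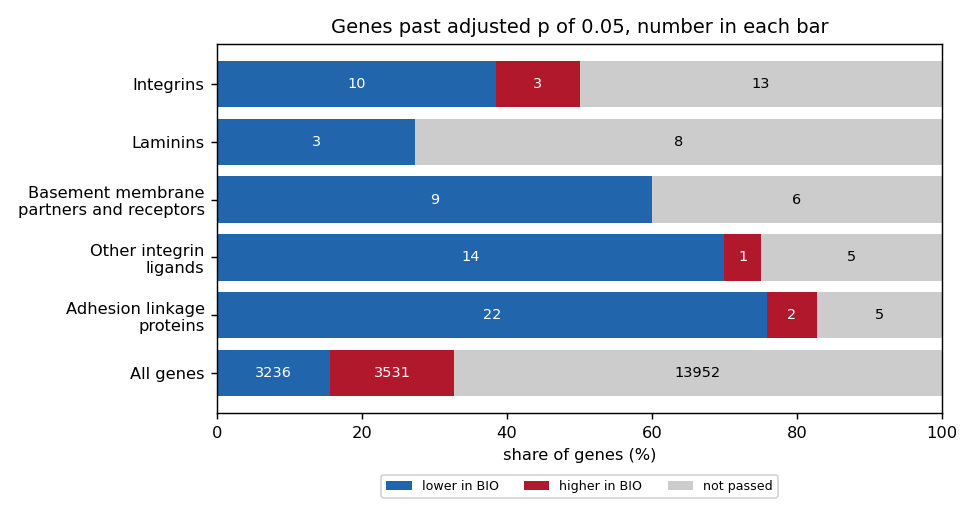
Share of genes (x axis, %) that fell (blue), rose (red) or did not pass (grey) in BIO for integrins, laminins, the 3 related lists and all 20719 genes, with the number of genes in each segment. Lower genes make up 75.9% of the adhesion linkage list and 27.3% of the laminins, beside 15.6% of all genes.

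The authors' deposited table also gives ratios and unadjusted p-values from another experiment of theirs, headed as 3 Wnt against 4 SF1 samples. Those samples are not described in the sources used here and no error of the ratios is given. At an unadjusted p under 0.05 in the authors' deposited table, 12.9% of all genes passed, and after Benjamini-Hochberg adjustment over all genes 0 of 20719 did. Of the 37 genes, 10 had such a p, and 4 of these 10 (40.0%) also passed in BIO against vehicle, beside 38.6% of all genes with such a p. By the authors' deposited ratios, Itga2 was lower in both experiments (0.672 for BIO over vehicle and 0.728 for WNT over SF1), and the other 3 went opposite ways: 0.874 and 1.6 for Itgav, 0.744 and 1.17 for Itga11, and 1.23 and 0.569 for Itgb7. Beyond 1.3-fold as well, 6 of the 37 genes were lower in WNT and 1 was higher, against 4.7% and 4.02% of all genes.

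The genes that were lower there were mostly leukocyte integrins. In the authors' deposited table the ratio of WNT over SF1 was 0.365 for Itgal (p = 0.0188), 0.375 for Itgb2 (p = 0.0162), 0.382 for Itgax (p = 0.0171), 0.569 for Itgb7 (p = 0.0189) and, outside that group, 0.407 for Itga4 (p = 0.0239) and 0.728 for Itga2 (p = 0.0181). The gene that was higher in the authors' deposited table was Itgav, at a ratio of 1.6 (unadjusted p = 0.0273). Of the marker lists, 4 of 8 leukocyte genes and 3 of 5 endothelial genes were lower in WNT by the same criteria in the authors' deposited table, with median ratios of 0.563 and 0.324, and 5 of 8 adrenocortical genes were higher, with a median ratio of 1.8. The part of these in the integrin ratios was not tested.

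The genes with the largest changes in BIO did not pass there. The authors' deposited table gives WNT over SF1 ratios of 1.25 for Itga3 (p = 0.314), 1.07 for Itga6 (p = 0.739), 0.995 for Itgb8 (p = 0.897), 1.39 for Itgb5 (p = 0.218) and 1.73 for Lamb1 (p = 0.0514). Whether the 2 experiments differ for any gene was not tested.

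**Figure D4:**
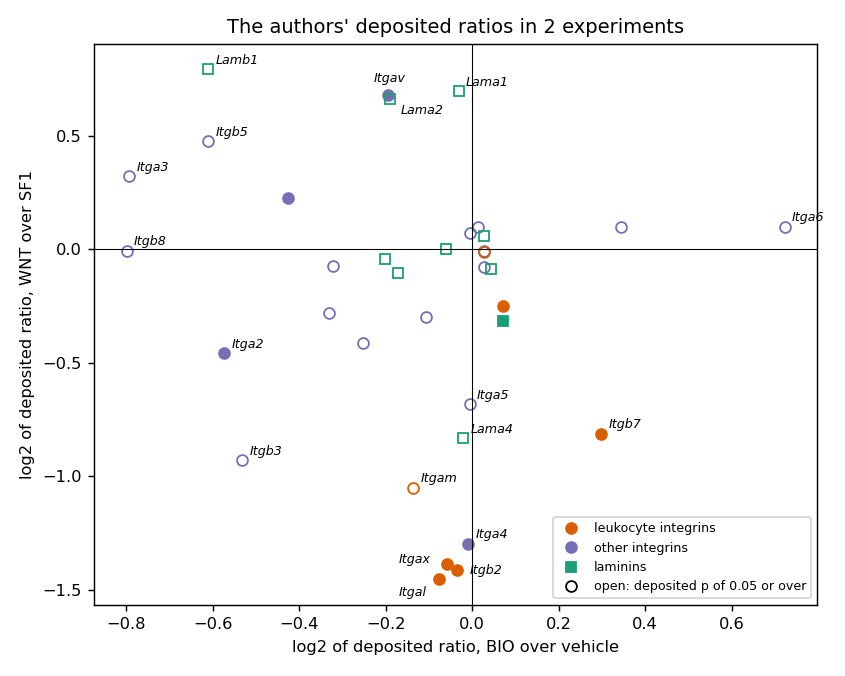
The authors' deposited ratios on log2 axes for 36 of the 37 genes, BIO over vehicle (x axis) and WNT over SF1 in the other experiment (y axis); orange circles are leukocyte integrins, purple circles other integrins and green squares laminins, filled where the deposited p of the other experiment is under 0.05. Itgal, Itgb2 and Itgax lie lowest on the y axis and near 0 on the x axis.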

How the data were processed

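Gene expression was measured on Mouse Gene 1.1 ST array strips in 4 BIO and 4 vehicle samples of ATCL7 cells, from 250 ng of total RNA each. The authors deposited log2 values made by RMA with the oligo package from perfect-match probes, per the file headers and the submitters' processing notes; its version was not stated there. Of 28944 probe sets, 23812 had 1 symbol and 5132 none, by annotation of the file headers' date, giving 20719 genes, of which 1683 had several probe sets. Gene identifiers matched the RefSeq table of GRCm38.p6 for 20480 genes, for names only; promoter windows are RefSeq's. The deposited value table of the series held the same values (largest difference 5.0e-09 log2). The authors also deposited p-values of a paired test and the ratio of BIO over vehicle, with the same 2 quantities (p-values, fold ratios) from a separate experiment.

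The main test was limma 3.58.1 (lmFit, eBayes) in R 4.3.3 over all genes, blocked by pair and two-sided, Benjamini-Hochberg adjusted, threshold 0.05, with 8.07 degrees of freedom. The pairs come from the titles; after subtracting group means, the arrays of each pair correlated at 0.446, 0.578, 0.385 and 0.617 across genes. The procedure was tested on simulated data in which a far smaller share of genes changed than passed here, so that test does not cover data like these. Strip and scan batches were not tested, since no source used here gives them. Alternatives left out the block, replicates or dim genes, or changed the normalization, the prior, the probe sets or the test. Named genes were the 12 members past the threshold with the largest change, Itgb1, Itgav and Lamc1, the 5 largest of each related list and Tln1, Ptk2, Ilk, Nid1 and Fn1; other members are given by value as well. Members and lists were chosen with earlier results of these data known. The values of 1 member are counted in the totals and are not reported here.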

Additional observations from a re-analysis of the deposited data

Results flagged for a closer look

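Among 112 groups of 4 arrays (56 genes, BIO and vehicle each), 3 held an array whose gap to the nearest other was, as a share of the group's range, above Dixon's 95% critical value, where chance gives about 1 in 20. For Itgad, BIO replicate 4 read 4.92 log2 and the other 3 BIO arrays 5.01 to 5.02. For Itgae, vehicle replicate 3 read 4.27 log2 and the others 4.39 to 4.41. For Tns1, BIO replicate 4 read 9.11 log2 and the others 8.86 to 8.88, all below the vehicle arrays.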

How the results depend on the processing

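The pairing comes from the titles. Without the replicate block, as in all other alternatives, no called gene of those named turned direction. The counts of members were 3 higher and 13 lower. They were 1 and 6 once the dimmest 50% of genes were dropped, which left 10 of the 37 genes. The count lower was 9 without the replicate block and 7 by the authors' deposited paired test. The shares of all genes that passed in the alternatives are not given here. Calls lost by the members or the related lists therefore cannot be set against a loss over all genes. Without single replicates the counts ran from 2 to 3 higher and from 10 to 13 lower. Of the 16 called members, 9 kept their call in every alternative that retained them; the others were Itgav, Itga9, Itgb4, Itgb7, Lama2, Lamb1 and Lamb3. Lists of related genes varied in their few rises: the 2 higher adhesion linkage genes became 0 without the replicate block and 1 under cyclic loess, without the dimmest 50% and by the deposited test (1 to 2 without single replicates, 1 without 2, 3 or 4); the 1 higher ligand gene became 0 in all 4 of these (0 to 1 without single replicates, 0 without 2, 3 or 4); and the 0 higher basement membrane genes became 1, Dag1, by the deposited test. Falls on these lists varied as well. Lower adhesion linkage genes went from 22 to 16 without the replicate block and to 15 by the deposited test. In the same 2 alternatives, lower ligand genes went from 14 to 12 and 10, and lower basement membrane genes from 9 to 9 and 7. The median change of integrins was −0.067 and moved to −0.194 without the dimmest 25% and −0.263 without the dimmest 50% of genes, and ran from −0.103 to −0.05 without single replicates. The cause of these shifts was not tested, except that a filter leaves fewer genes. The number of arrays limits the precision, and with no detection call it is unknown which of the dim members, 27 of 37, lie above background.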

Other observations

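Close relatives on the related lists differed in their change; these gene pairs were named after their values were seen. The change of Tln2 exceeded that of Tln1 by 0.71, 0.59, 0.68 and 0.51 log2 in pairs 1 to 4. The change of Nid1 minus that of Nid2 was −1.69, −2.37, −1.87 and −1.96 log2, with Nid2, the second nidogen, at 5.73 ± 0.16 log2 in BIO and 5.64 ± 0.13 log2 in vehicle (SD, n = 4 each) and not past the threshold. Each difference had 1 sign in 4 of 4 pairs (exact sign-flip p = 0.125, the smallest that 4 pairs allow).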
